A study of Mus musculus with 12 samples.

Results

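E0771 cells that received 4HC together with an anti-IFNAR1 antibody were compared with untreated E0771 cells across all genes of the deposited expression table. E0771 is a mouse mammary adenocarcinoma cell line of the C57BL/6 strain, and 4HC (4-hydroperoxycyclophosphamide) is a chemically activated form of cyclophosphamide, an alkylating drug that crosslinks DNA. The comparison takes every gene whose group mean reached at least 0.5 FPKM (fragments scaled to transcript length and to library size) with 4HC and antibody or in untreated cells. This rule kept 10995 of the 24197 genes of the table, or 45.4%. The threshold divides genes of nearly equal level: Adamts20 was the lowest gene inside it, with 0.409 FPKM with 4HC and antibody and 0.5002 FPKM in untreated cells, whereas Myo1a was left out at 0.4999 FPKM with 4HC and antibody and 0.355 FPKM in untreated cells.

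The series holds 12 polyA-selected, stranded RNA-seq libraries of cultured cells, 3 from each of 4 groups. Cells of the first group were exposed for 4 hours to 4.2 µmol/L 4HC and 10 µg/mL of the monoclonal anti-IFNAR1 antibody MAR1-5A3, washed, and kept in fresh medium with antibody for a further 68 hours, 72 hours in all. The 4HC group had the same drug exposure without antibody, and the IFNβ group had 27.8 U/mL of recombinant mouse IFNβ for 4 hours and was collected 2 hours after the wash, a time at which the sources differ. The reference cells are named untreated in the table and vehicle control in the labels. The header gives them 72 hours, as for both 4HC groups, whereas the IFNβ cells were collected after a shorter time. Exposure to IFNβ and this difference in time cannot be told apart. No group received a control antibody or antibody without drug, so receptor block and any other effect of the antibody cannot be told apart. The 4 groups are cultures of 1 cell line and hold no host cells.

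The table gives 1 mean per group and no value per library. No spread between cultures can be shown from it and no test between groups could be run on it, and the adjusted p-values that the authors list beside the means were not used. Every value below is thus a deposited group mean with no SD and no test. A gene is called higher or lower where its means differ by 2-fold or more after 0.1 FPKM is added to both. The log2 ratio of a gene is log2((4HC with antibody + 0.1)/(untreated + 0.1)) of its mean FPKM, and it understates the difference of genes near the added 0.1 FPKM. The table gives no number of reads per library or gene, so low means cannot be given an interval. The header of the table names the column of 4HC with antibody, and this name was followed throughout. A display in the study places values of the same column, among them those of Erbb2 and Cd274, under IFNβ, so the name rests on the header. The comparisons of 4HC and of IFNβ with untreated cells, set beside this one, use the same untreated libraries.

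Type I interferons such as IFNβ bind a receptor made of IFNAR1 and IFNAR2. The receptor activates JAK1 and TYK2, which phosphorylate transcription factors of the STAT family. These join IRF9 in the complex ISGF3, which binds the interferon-stimulated response element (ISRE) of interferon-stimulated genes (ISGs). Damaged DNA and free nucleic acid in the cytosol can also act through NF-κB, through interferon regulatory factors that do not need the receptor, and through p53. NF-κB drives genes of chemokines, cytokines and adhesion molecules together with its own inhibitors, and the transcription factors ATF4 and ATF3 act in the integrated stress response.

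Promoters of 7 genes named in the results are shown with their matches to short motifs. These promoters were picked as ones in which the NF-κB, ISRE or ATF4 letters can be seen, and do not stand for other promoters. Each is a RefSeq window of build GRCm38.p6 with 250 bases before and 50 bases after the gene start, written 5′ to 3′ on the strand of the gene. Capitals mark GGANTTTCC (part of common NF-κB sites) in Cxcl10, Ifnb1, Icam1, Cxcl1 and Isg15, TTCNNTTTC (core of the ISRE) in Cxcl10, Ifit1 and Isg15, and TGATGCAA (an ATF4-CEBP site) in Atf3, on either strand, and neighbouring matches can overlap. The windows lie at chr5:92348840-92349139 (minus strand) for Cxcl10, chr4:88522745-88523044 (minus) for Ifnb1, chr9:21015690-21015989 (plus) for Icam1, chr5:90890995-90891294 (plus) for Cxcl1, chr1:191183284-191183583 (minus) for Atf3, chr19:34640639-34640938 (plus) for Ifit1 and chr4:156200769-156201068 (minus) for Isg15.
Cxcl10: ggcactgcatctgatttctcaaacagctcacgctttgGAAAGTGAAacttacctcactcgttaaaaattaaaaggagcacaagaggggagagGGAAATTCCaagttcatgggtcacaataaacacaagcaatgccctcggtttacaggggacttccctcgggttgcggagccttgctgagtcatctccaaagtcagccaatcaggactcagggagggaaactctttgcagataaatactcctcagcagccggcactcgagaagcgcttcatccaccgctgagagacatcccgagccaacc
Ifnb1: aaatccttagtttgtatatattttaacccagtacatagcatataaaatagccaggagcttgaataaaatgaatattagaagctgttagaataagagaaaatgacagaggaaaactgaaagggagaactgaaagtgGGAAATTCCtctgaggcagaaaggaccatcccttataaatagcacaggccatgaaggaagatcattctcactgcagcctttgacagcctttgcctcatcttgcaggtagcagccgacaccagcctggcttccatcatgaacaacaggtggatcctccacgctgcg
Icam1: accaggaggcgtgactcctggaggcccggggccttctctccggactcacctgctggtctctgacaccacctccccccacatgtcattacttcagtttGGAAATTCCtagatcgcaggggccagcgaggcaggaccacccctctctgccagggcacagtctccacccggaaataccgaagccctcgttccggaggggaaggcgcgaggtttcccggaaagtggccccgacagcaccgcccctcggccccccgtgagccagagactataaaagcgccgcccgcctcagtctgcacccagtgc
Cxcl1: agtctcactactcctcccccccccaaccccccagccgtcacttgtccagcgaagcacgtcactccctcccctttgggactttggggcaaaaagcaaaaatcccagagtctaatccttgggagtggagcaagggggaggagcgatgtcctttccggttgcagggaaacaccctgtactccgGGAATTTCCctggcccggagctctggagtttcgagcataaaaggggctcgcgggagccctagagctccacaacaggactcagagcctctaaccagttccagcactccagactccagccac
Atf3: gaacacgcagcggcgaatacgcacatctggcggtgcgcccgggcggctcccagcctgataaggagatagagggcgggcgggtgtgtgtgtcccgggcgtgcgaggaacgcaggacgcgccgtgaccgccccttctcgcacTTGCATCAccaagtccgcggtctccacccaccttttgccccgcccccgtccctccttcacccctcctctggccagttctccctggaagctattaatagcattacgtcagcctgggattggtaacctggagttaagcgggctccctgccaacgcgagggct
Ifit1: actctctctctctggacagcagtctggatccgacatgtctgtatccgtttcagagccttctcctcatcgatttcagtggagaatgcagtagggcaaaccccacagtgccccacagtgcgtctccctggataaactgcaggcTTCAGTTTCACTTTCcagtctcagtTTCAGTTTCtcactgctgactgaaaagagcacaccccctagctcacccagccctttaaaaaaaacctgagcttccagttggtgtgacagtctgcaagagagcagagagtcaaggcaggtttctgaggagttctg
Isg15: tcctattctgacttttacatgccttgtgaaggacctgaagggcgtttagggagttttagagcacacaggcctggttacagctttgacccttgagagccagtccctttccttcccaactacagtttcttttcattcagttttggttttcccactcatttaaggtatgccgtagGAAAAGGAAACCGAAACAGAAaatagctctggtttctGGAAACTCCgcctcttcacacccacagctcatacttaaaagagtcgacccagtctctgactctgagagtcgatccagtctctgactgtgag

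The NF-κB letters stood 158 bases before the start of Cxcl10, 115 before Ifnb1, 153 before Icam1, 70 before Cxcl1 and 41 before Isg15, counted to the first letter of the match. The ISRE letters began 213 bases before the start of Cxcl10, at 3 places 109, 103 and 84 bases before Ifit1, and at 3 overlapping places 78, 72 and 66 bases before Isg15. In Atf3 the ATF4-CEBP letters began 110 bases before the start. Of the genes tested, 8113 had at least 1 RefSeq window, with 10389 windows in all. Among the 490 genes called higher, 292 had a window. The shares count windows, not genes. GGANTTTCC was found in 5.7% of the 386 windows of genes called higher, in 5.26% of the 19 windows of genes called lower (1 window) and in 1.41% of all windows of genes tested. TTCNNTTTC was found in 13.5% of windows of genes called higher, in 0 of the 19 of genes called lower and in 6.96% of all tested, and TGANTCA, the AP-1 site, in 12.7%, 5.26% and 4.98%. TGATGCAA was found in 2.07% of windows of genes called higher, in 0 of the 19 and in 0.578% of all tested. Over all 32851 RefSeq windows, of genes tested or not, GGANTTTCC was in 1.25%, TTCNNTTTC in 8.56%, TGANTCA in 7.81% and TGATGCAA in 0.895%. Near-equal shares of the windows of genes called higher and of all tested held TGACGTCA, the cAMP response element (3.11% and 3.22%), and TGACNNNGC, part of the antioxidant response element (14.5% in both). By list, GGANTTTCC was in 3 of 6 windows of chemokine genes and in 6 of 26 of NF-κB subunits and inhibitors. The 6 chemokine windows covered 5 of the 9 chemokine genes tested. GGANTTTCC was in 1 of 15 windows of cytokine genes and 1 of 8 of inflammatory enzymes and adhesion molecules. Acute-phase and complement genes had it in 0 of 6. TTCNNTTTC was in 23 of 43 windows of core ISGs and 7 of 8 of interferon-inducible GTPase genes. For chemokine genes it was in 1 of 6 windows. A match of letters is a description of the window and shows no binding.

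Cells treated with 4HC and antibody had far more genes above than below their untreated level at the 2-fold mark. Of the 10995 genes tested, 490 were called higher (4.46%) and 49 lower (0.446%). The counts given for each list below are to be read beside these shares. The median log2 ratio of all genes tested was 0.02, with quartiles of -0.21 and 0.27. Most genes called higher were weakly expressed: 334 reached 1 FPKM with 4HC and antibody, 81 reached 10 FPKM and 9 reached 100 FPKM. At least 4-fold higher were 108 genes, and at least 8-fold higher were 22. Of the 49 genes called lower, 7 were lower by at least 4-fold. Of the calls, 60 higher and 27 lower belonged to microRNA, snoRNA and similar small RNA symbols or to names turned into dates, and without these the counts were 430 and 22. Small RNAs are poorly measured in polyA-selected libraries and share reads with their host genes, so none is described here as a result. Adding 1 FPKM in place of 0.1 FPKM left 148 genes higher and 8 lower, which shows how many calls rest on low means.

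**Figure D1:**
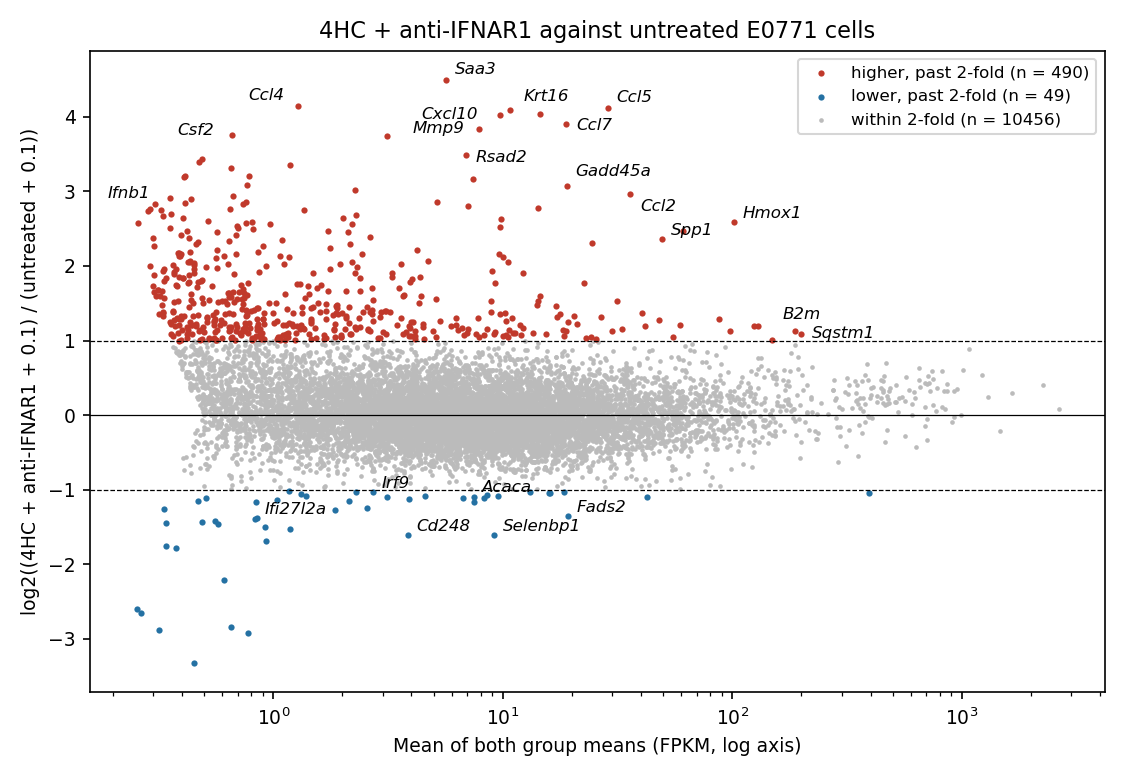
Each point is 1 of the 10995 genes tested, with the mean of both group means in FPKM on a log axis and the log2 ratio of 4HC with anti-IFNAR1 antibody over untreated on the vertical axis, and dashed lines mark 2-fold. Red points are the 490 genes called higher and blue points the 49 called lower, with chemokine genes and Saa3 near the top, at log2 ratios up to 4.49.

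Chemokine genes that reached 0.5 FPKM were mostly above untreated cells. Of 33 chemokine genes, 9 reached this level in either group, and 8 of these were called higher and 0 lower, with a median log2 ratio of 2.96. Of the 9, 3 were below 0.5 FPKM in untreated cells and were tested through their mean with 4HC and antibody alone. The median over all 33 with no minimum was 0.63, below those of inflammatory enzymes and adhesion molecules (1.25), interferon-inducible GTPases (1.14) and cytokines (0.71) taken in the same way. Ccl5, which attracts T cells and monocytes, had 54.3 FPKM with 4HC and antibody, 58.0 FPKM with 4HC alone, 2.71 FPKM with IFNβ and 3.04 FPKM in untreated cells (log2 ratio 4.12). Ccl2, a monocyte attractant, had 63.6 FPKM with 4HC and antibody, 71.5 FPKM with 4HC alone, 23.5 FPKM with IFNβ and 8.06 FPKM in untreated cells (log2 ratio 2.96). Its neighbour Ccl7 had 35.3, 36.6, 7.95 and 2.26 FPKM in the same order of groups (log2 ratio 3.91). Both genes lie on chromosome 11 of build mm9, Ccl2 at chr11:81849078-81850954 and Ccl7 at chr11:81859213-81861025. For each of these 3 genes the mean with antibody was close to that with 4HC alone, and the IFNβ mean was well below both.

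Cxcl10, a ligand of CXCR3 on activated T cells, had 18.5 FPKM with 4HC and antibody, 28.6 FPKM with 4HC alone, 11.2 FPKM with IFNβ and 1.04 FPKM in untreated cells (log2 ratio 4.02). It thus stayed above the untreated mean in both 4HC groups and also with IFNβ, and its promoter window above held both the NF-κB and the ISRE letters. Cxcl11, which shares this receptor, was below the threshold, at 0.0645 FPKM with 4HC and antibody, 0.362 FPKM with 4HC alone, 0.00576 FPKM with IFNβ and 0.00634 FPKM in untreated cells. Ccl4 had 2.52, 2.34, 0.128 and 0.0481 FPKM in the same order (log2 ratio 4.15). Means under 1 FPKM with 4HC and antibody were found for the neutrophil attractants Cxcl1, at 0.674 FPKM against 0.0355 FPKM in untreated cells, and Cxcl2, at 0.643 FPKM against 0.0171 FPKM. The membrane-bound chemokine Cx3cl1 was called higher at 2.57 FPKM against 1.09 FPKM in untreated cells (log2 ratio 1.16), a call not kept with 1 FPKM added (0.77). Ccl25, at 4.27 FPKM with 4HC and antibody and 2.75 FPKM in untreated cells, was the chemokine tested that was not called.

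Of 46 cytokine and growth factor genes, 18 were tested, with 11 called higher, 0 lower and a median log2 ratio of 1.39, and 7 of the 18 were below 0.5 FPKM in untreated cells. Csf2, the gene of the growth factor GM-CSF, had 1.32 FPKM with 4HC and antibody, 1.15 FPKM with 4HC alone, 0.00894 FPKM with IFNβ and 0.00492 FPKM in untreated cells (log2 ratio 3.75). Gdf15, a stress-induced member of the TGF-β superfamily, had 24.99 FPKM with 4HC and antibody, 29.5 FPKM with 4HC alone, 4.34 FPKM with IFNβ and 3.55 FPKM in untreated cells (log2 ratio 2.78). Both were near their 4HC mean and far from the IFNβ mean. Tnf, an inducer of NF-κB, had 1.26, 1.503, 0.138 and 0.134 FPKM in this order (log2 ratio 2.54, and 0.997 with 1 FPKM added). Csf1, the macrophage growth factor, was the most abundant member called, at 33.97 FPKM with 4HC and antibody, 48.0 FPKM with 4HC alone, 31.9 FPKM with IFNβ and 16.7 FPKM in untreated cells (log2 ratio 1.02, and 0.98 with 1 FPKM added). The EGF receptor ligands Areg and Hbegf, named after their values were seen, were at 6.86 and 5.76 FPKM with 4HC and antibody, against 1.82 and 2.37 FPKM in untreated cells. Tgfb3 had the lowest ratio of the list (4.12 FPKM against 4.90 FPKM in untreated cells, log2 ratio -0.24).

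Genes of NF-κB inhibitors, which the pathway induces as its own brakes, were above untreated cells, whereas those of its subunits RelA and p105 were within 2-fold. Of 26 subunits and feedback inhibitors, 23 were tested, with 8 called higher, 0 lower and a median log2 ratio of 0.58. In untreated cells 2 of the 23 were below 0.5 FPKM. Nfkbia, the gene of the inhibitor IκBα, had 46.8 FPKM with 4HC and antibody, 47.5 FPKM with 4HC alone, 18.0 FPKM with IFNβ and 16.2 FPKM in untreated cells (log2 ratio 1.52). Nfkbie, coding for IκBε, had 3.66, 5.35, 0.569 and 0.583 FPKM in the same order (log2 ratio 2.46). Traf1, an adaptor of TNF receptors, had 3.53 FPKM with 4HC and antibody, 3.93 FPKM with 4HC alone, 0.478 FPKM with IFNβ and 0.483 FPKM in untreated cells (log2 ratio 2.64). These 3 genes had nearly the same mean with IFNβ as in untreated cells. Tnfaip3, the ubiquitin-editing enzyme A20, had 1.76 FPKM against 0.501 FPKM in untreated cells (log2 ratio 1.63, and 0.88 with 1 FPKM added). Bcl3 had 3.20 FPKM against 0.942 FPKM (log2 ratio 1.66). The subunit genes Rela (27.7 FPKM against 21.96 FPKM in untreated cells, log2 ratio 0.33) and Nfkb1 (9.51 FPKM against 10.7 FPKM, log2 ratio -0.16) were within 2-fold, whereas Relb was called higher at 8.90 FPKM against 3.54 FPKM.

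**Figure D2:**
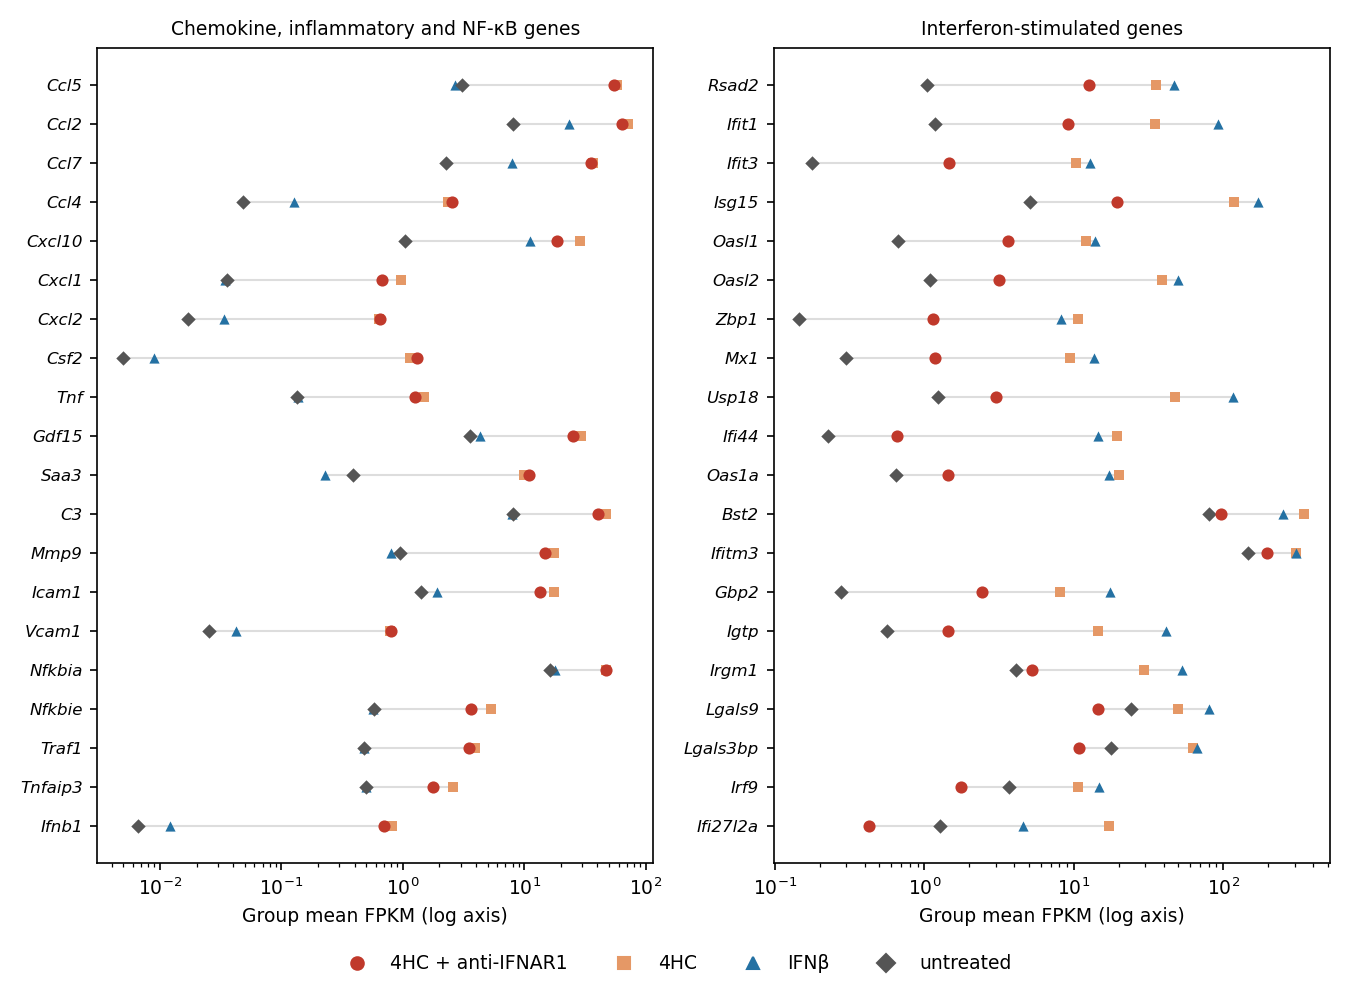
Group mean FPKM on a log axis for 20 chemokine, cytokine, inflammatory and NF-κB genes (left) and 20 interferon-stimulated genes (right), with circles for 4HC with anti-IFNAR1 antibody, squares for 4HC, triangles for IFNβ and diamonds for untreated cells, 1 symbol per group mean. In the left panel circles lie near squares, as for Ccl5 at 54.3 and 58.0 FPKM. In the right panel they lie between diamonds and squares or, for the 4 bottom genes, below the diamonds, as for Irf9 at 1.75 FPKM with 4HC and antibody and 3.68 FPKM in untreated cells.

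Acute-phase, protease and adhesion genes included the highest ratio of the comparison. Saa3, an acute-phase serum amyloid A gene at chr7:53967367-53971046 of mm9, had 10.97 FPKM with 4HC and antibody, 9.99 FPKM with 4HC alone, 0.227 FPKM with IFNβ and 0.391 FPKM in untreated cells (log2 ratio 4.49). Its family shares similar sequences, so the reads of single members are less certain. The complement gene C3 had 40.6, 46.7, 7.91 and 8.11 FPKM in the same order (log2 ratio 2.31). Of 27 acute-phase and complement genes, 10 were tested, with 4 called higher, 0 lower and a median log2 ratio of 0.75. Saa3 was among the 3 of these 10 that were below 0.5 FPKM in untreated cells. The complement gene C2 was at 4.95 FPKM with 4HC and antibody, 11.9 FPKM with 4HC alone, 11.5 FPKM with IFNβ and 5.48 FPKM in untreated cells. C2 thus did not differ past 2-fold from its untreated mean, unlike C3. Of 20 genes of inflammatory enzymes and adhesion molecules, 13 were tested and 9 called higher, with 0 lower and a median log2 ratio of 1.38, and 5 of the 13 were below 0.5 FPKM in untreated cells. The matrix metalloproteinase gene Mmp9 had 14.8 FPKM with 4HC and antibody, 17.4 FPKM with 4HC alone, 0.802 FPKM with IFNβ and 0.941 FPKM in untreated cells (log2 ratio 3.84). Icam1, a ligand of leukocyte integrins, had 13.4, 17.6, 1.91 and 1.41 FPKM in this order (log2 ratio 3.16). Sod2 was unlike these genes, at 10.48 FPKM with 4HC and antibody and 10.4 FPKM in untreated cells.

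The gene of IFNβ itself, Ifnb1, was above its untreated mean in both groups that received 4HC. It had 0.701 FPKM with 4HC and antibody, 0.820 FPKM with 4HC alone, 0.0120 FPKM with IFNβ and 0.00660 FPKM in untreated cells (log2 ratio 2.91, and 0.76 with 1 FPKM added). The receptor genes Ifnar1 (3.42 FPKM with 4HC and antibody, 3.49 FPKM in untreated cells, log2 ratio -0.03) and Ifnar2 (3.88 FPKM against 2.95 FPKM, log2 ratio 0.38) were within 2-fold. Of 22 interferon, receptor and signalling genes, 17 were tested, and Ifnb1 and the transcription factor gene Irf1 were the 2 called higher, with 0 lower. Ifnb1 was among the 3 of the 17 that were below 0.5 FPKM in untreated cells. Irf1 had 9.78 FPKM with 4HC and antibody, 14.7 FPKM with 4HC alone, 13.5 FPKM with IFNβ and 4.32 FPKM in untreated cells (log2 ratio 1.16). Of 22 genes of nucleic acid sensing, 19 were tested and 3 called higher, namely Tlr2, Ifi204 and the kinase gene Ikbke, with 0 lower. Over all genes tested 4.46% were called higher. The untreated mean was below 0.5 FPKM for 2 of the 19, Tlr2 among them. Tlr2, a receptor for bacterial lipoproteins, had 1.05 FPKM against 0.163 FPKM in untreated cells (log2 ratio 2.14). With 1 FPKM added none of the 3 passed 2-fold, with Tlr2 at 0.82, Ifi204 at 0.95 and Ikbke at 0.73. Tmem173, the gene of the adaptor STING, had 10.98 FPKM against 12.2 FPKM, and Adar, an RNA-editing enzyme gene, had 3.91 FPKM with 4HC and antibody, 14.1 FPKM with 4HC alone, 18.8 FPKM with IFNβ and 5.99 FPKM in untreated cells (log2 ratio -0.61).

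Interferon-stimulated genes were spread from well above to below their untreated level when the antibody was present. Of 57 core ISGs, 49 were tested, with 17 called higher, 2 lower and 30 neither, and the median log2 ratio was 0.41. Over all genes tested, 4.46% were called higher and 0.446% lower. The untreated mean was below 0.5 FPKM for 7 of the 49. In the comparison of 4HC alone with untreated cells, 54 of the 56 ISGs tested were called higher, against 5.07% of all genes tested there, and in that of IFNβ 56 of 57, against 2.19% of all genes tested. The median log2 ratios of the list in those comparisons were 3.16 and 3.76. With 4HC and antibody, none of the 49 ISGs tested had a mean above that with 4HC alone or with IFNβ, 35 lay at or between the untreated and the 4HC mean, and 14 lay below the untreated mean.

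Rsad2, the antiviral enzyme viperin, had the highest ratio of these ISGs, with 12.7 FPKM with 4HC and antibody, 35.4 FPKM with 4HC alone, 47.1 FPKM with IFNβ and 1.04 FPKM in untreated cells (log2 ratio 3.48). Ifit1, which binds viral RNA that lacks a host cap, had 9.13 FPKM with 4HC and antibody, 34.9 FPKM with 4HC alone, 91.7 FPKM with IFNβ and 1.18 FPKM in untreated cells (log2 ratio 2.85). Both were several-fold above untreated cells and well below both other treatments. Zbp1, a sensor of Z-form nucleic acid, had 1.14, 10.7, 8.16 and 0.145 FPKM in the same order (log2 ratio 2.34). Oasl1 had 3.64, 12.04, 13.8 and 0.667 FPKM (log2 ratio 2.29), and Mx1, an antiviral GTPase gene, 1.18, 9.48, 13.6 and 0.299 FPKM (log2 ratio 1.69). With 1 FPKM added, Zbp1 (0.90) and Mx1 (0.75) did not pass 2-fold. Isg15, a ubiquitin-like modifier, had 19.4 FPKM with 4HC and antibody, 118 FPKM with 4HC alone, 172 FPKM with IFNβ and 5.11 FPKM in untreated cells (log2 ratio 1.91). Usp18, which removes Isg15 from proteins, was nearer its untreated level, at 3.03, 47.4, 115 and 1.23 FPKM (log2 ratio 1.23).

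Several other ISGs were within 2-fold of untreated cells. Irf7, a transcription factor gene of the interferon response, had 1.48 FPKM with 4HC and antibody, 30.9 FPKM with 4HC alone, 43.8 FPKM with IFNβ and 1.21 FPKM in untreated cells (log2 ratio 0.27). Bst2, a gene of the virus-tethering protein tetherin, had 96.6, 349, 251 and 79.9 FPKM in this order (log2 ratio 0.27). Genes below untreated cells included Irf9, the DNA-binding part of ISGF3, with 1.75 FPKM with 4HC and antibody, 10.7 FPKM with 4HC alone, 14.7 FPKM with IFNβ and 3.68 FPKM in untreated cells (log2 ratio -1.03). Ifi27l2a, a small mitochondrial ISG, had 0.424, 17.1, 4.54 and 1.27 FPKM in this order (log2 ratio -1.38). Irf9 and Ifi27l2a were the 2 ISGs called lower. With 1 FPKM added neither passed 2-fold (log2 ratios -0.77 and -0.67), and Irf9 was at -0.9968 after centring on genes of like transcript length. Lgals9, at 14.4 FPKM against 24.3 FPKM in untreated cells, and Lgals3bp, at 10.8 FPKM against 17.7 FPKM, were lower by less than 2-fold and were named after their values were seen.

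Interferon-inducible GTPase genes, whose products attack the vacuoles of intracellular pathogens, all stood above untreated cells. Of 18 listed, 9 were tested, with 7 called higher, 0 lower and a median log2 ratio of 1.55, against medians of 4.40 for 4HC alone and 4.76 for IFNβ over the members tested in those comparisons. Gbp2 had 2.44 FPKM with 4HC and antibody, 8.02 FPKM with 4HC alone, 17.3 FPKM with IFNβ and 0.276 FPKM in untreated cells (log2 ratio 2.76). Igtp, by contrast, had 1.45, 14.5, 41.5 and 0.558 FPKM in the same order (log2 ratio 1.23, and 0.65 with 1 FPKM added). Irgm1 had 5.27 FPKM with 4HC and antibody, 29.4 FPKM with 4HC alone, 53.3 FPKM with IFNβ and 4.10 FPKM in untreated cells (log2 ratio 0.35). Members of the Gbp and Irg families are similar in sequence, and the levels of single members are uncertain to that extent. Of the 9 tested, 7 were below 0.5 FPKM in untreated cells, and the median was 0.55 with 1 FPKM added.

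Some antigen presentation genes of class I were called higher. Of 21 class I and peptide-loading genes, 17 were tested, with 5 called higher, 0 lower and a median log2 ratio of 0.69. In untreated cells 1 of the 17, H2-Q4, was below 0.5 FPKM. B2m, the invariant chain of class I molecules, had 257 FPKM with 4HC and antibody, 446 FPKM with 4HC alone, 257 FPKM with IFNβ and 117 FPKM in untreated cells (log2 ratio 1.13). H2-D1, a classical class I heavy chain gene, had 199, 363, 160 and 98.4 FPKM in the same order (log2 ratio 1.01), and H2-K1 had 25.5, 60.7, 19.8 and 9.89 FPKM (log2 ratio 1.36). The class I heavy chain genes are near copies of each other, so their separate levels are uncertain. B2m, H2-D1 and H2-Q4 were not past 2-fold after centring on genes of like transcript length, at 0.80, 0.96 and 0.98. H2-Q4 was at 0.44 with 1 FPKM added, and H2-D1 at 0.997 after centring on the median of all genes. Tap1, a subunit of the peptide transporter, had 4.38 FPKM with 4HC and antibody, 20.3 FPKM with 4HC alone, 37.3 FPKM with IFNβ and 3.96 FPKM in untreated cells (log2 ratio 0.14). Cd74, the invariant chain of class II, had 5.92, 5.85, 0.440 and 0.348 FPKM (log2 ratio 3.75). It was the 1 called of 3 class II genes tested, against 4.46% of all genes tested. Cd74 was below 0.5 FPKM in untreated cells and was tested through its mean with 4HC and antibody alone. Of 14 NKG2D and checkpoint ligand genes tested, 1 was called higher, against 4.46% of all genes tested. It was Cd274, coding for PD-L1, at 0.778 FPKM with 4HC and antibody, 1.94 FPKM with 4HC alone, 2.57 FPKM with IFNβ and 0.252 FPKM in untreated cells (log2 ratio 1.32, and 0.51 with 1 FPKM added). Cd274 was likewise tested through its mean with 4HC and antibody alone.

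**Figure D3:**
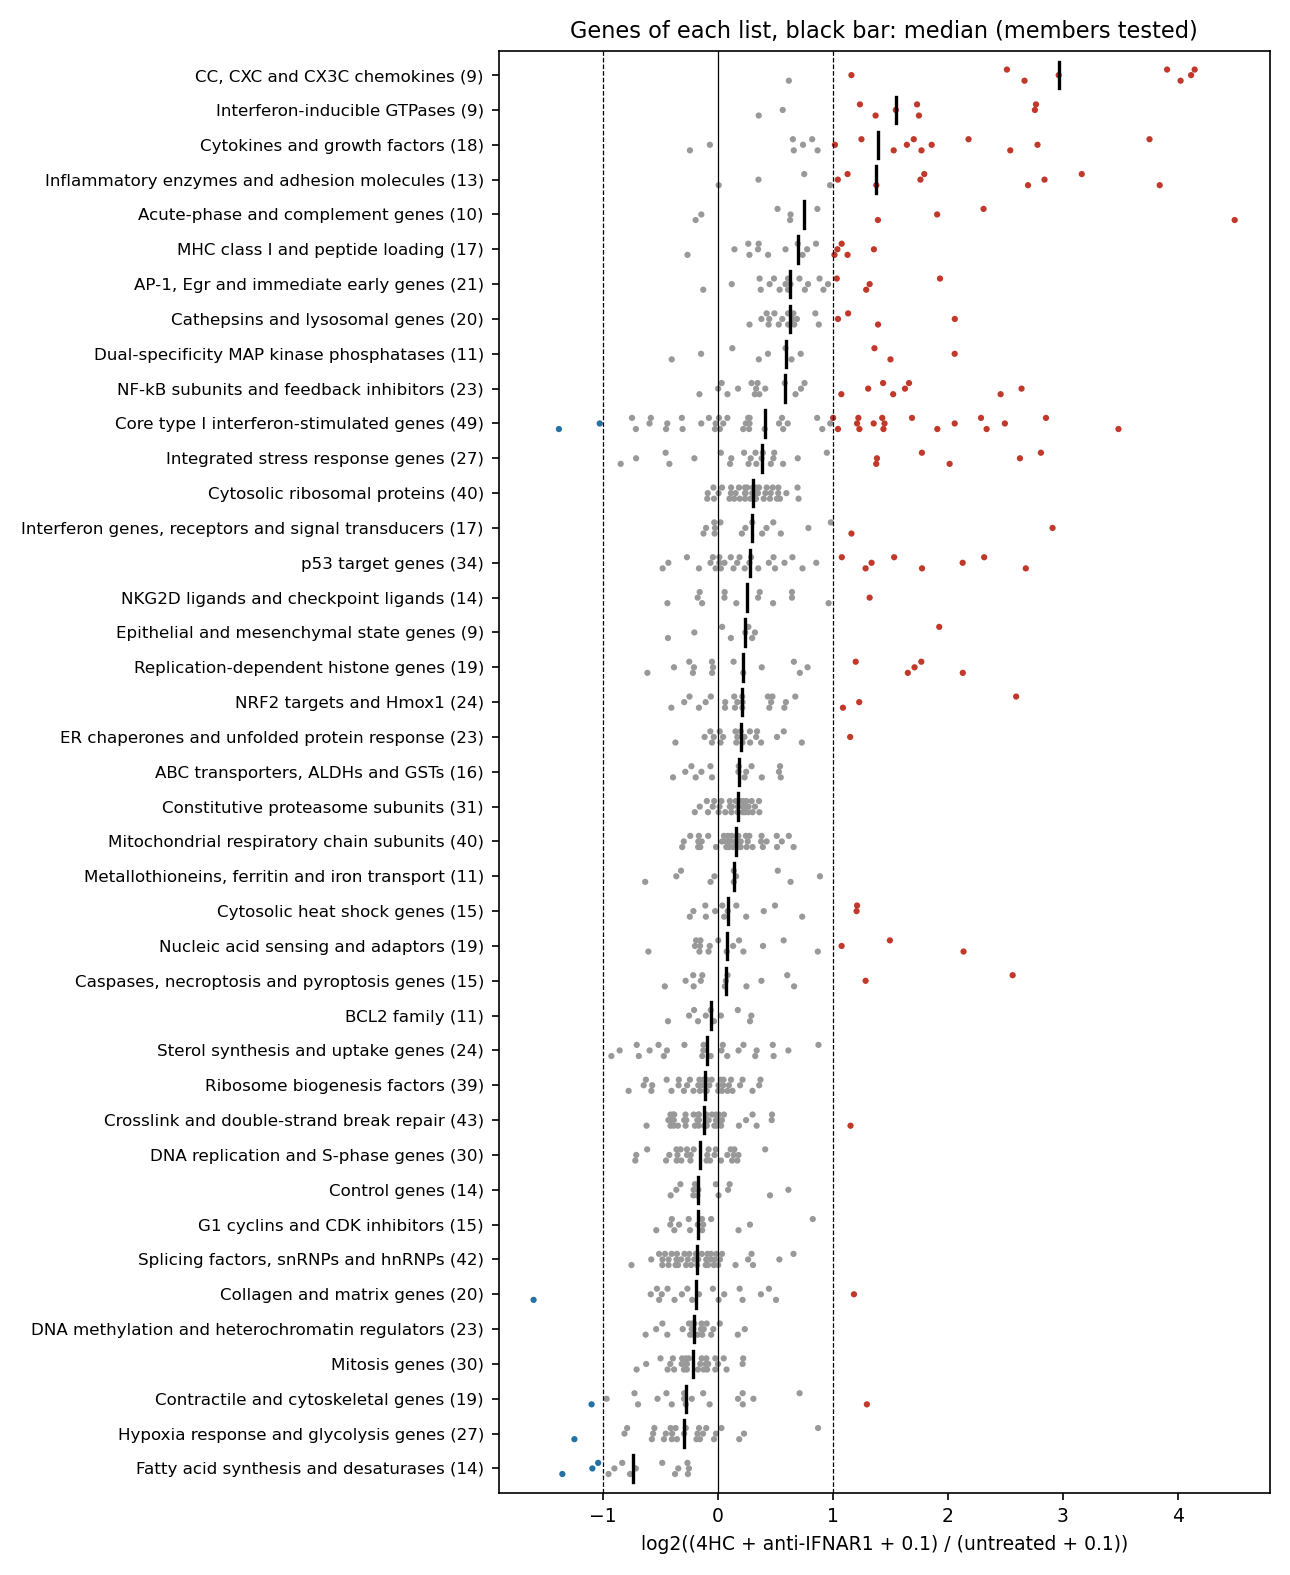
Each point is a tested gene of a list, placed by its log2 ratio of 4HC with anti-IFNAR1 antibody over untreated. Rows are the lists with at least 9 members tested, black bars are medians, dashed lines mark 2-fold, and red and blue points are genes called higher and lower. The median of the chemokine genes shown is 2.96, against 0.63 over the whole list with no minimum, that of fatty acid synthesis genes is -0.74, and the core ISGs spread from -1.38 to 3.48.

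Targets of p53, the transcription factor stabilized by DNA damage, were higher in part. Of 42 targets, 34 were tested, with 8 called higher, 0 lower and a median log2 ratio of 0.28. Below 0.5 FPKM in untreated cells were 4 of the 34, which were tested through their mean with 4HC and antibody alone. Btg2 and Trp53inp1 were among the 8 and did not pass 2-fold with 1 FPKM added (0.80 and 0.76). Fas, a death receptor gene, had 4.05 FPKM with 4HC and antibody, 4.57 FPKM with 4HC alone, 1.64 FPKM with IFNβ and 0.549 FPKM in untreated cells (log2 ratio 2.68). Ddb2, of nucleotide excision repair, had 1.81, 2.30, 0.429 and 0.337 FPKM (log2 ratio 2.13). Cdkn1a, the cell cycle inhibitor p21, had 29.2, 38.2, 22.2 and 11.5 FPKM in the same order (log2 ratio 1.34), and Mdm2, which marks p53 for degradation, had 16.3, 18.9, 7.89 and 7.69 FPKM (log2 ratio 1.08). These 2 genes were named after their values were seen. Other targets were close to untreated cells, Bax at 78.4 FPKM against 64.9 FPKM (log2 ratio 0.27) and Ei24 at 15.3 FPKM against 21.5 FPKM (log2 ratio -0.48). Gadd45a, a growth arrest gene that is not on this list, was among the 20 highest ratios, at 34.1 FPKM with 4HC and antibody, 33.6 FPKM with 4HC alone, 5.91 FPKM with IFNβ and 3.98 FPKM in untreated cells (log2 ratio 3.07).

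The integrated stress response list had 27 of 30 genes tested, with 6 called higher, 0 lower and a median log2 ratio of 0.38. In untreated cells 2 of the 27 were below 0.5 FPKM. Atf3, whose promoter window held the ATF4-CEBP letters, had 12.4 FPKM with 4HC and antibody, 12.9 FPKM with 4HC alone, 2.73 FPKM with IFNβ and 1.68 FPKM in untreated cells (log2 ratio 2.81). Ddit3, coding for the stress factor CHOP, had 16.9, 15.2, 3.12 and 2.66 FPKM in the same order (log2 ratio 2.63). Atf4 itself was at 138 FPKM with 4HC and antibody and 113 FPKM in untreated cells (log2 ratio 0.28), and Slc7a5, an amino acid transporter gene with the lowest ratio of the list, was at 42.4 FPKM against 76.4 FPKM in untreated cells (log2 ratio -0.85). Of 23 ER chaperone and unfolded protein response genes tested, 1 was called higher, against 4.46% of all genes tested. It was Dnajb9, at 11.8 FPKM against 5.27 FPKM in untreated cells (log2 ratio 1.15). Hspa5, the main ER chaperone, was at 183 FPKM against 123 FPKM (log2 ratio 0.57).

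Hmox1 and Sqstm1 were abundant genes called higher among targets of NRF2, a regulator of the antioxidant response. Hmox1, the haem-degrading enzyme, had 175 FPKM with 4HC and antibody, 178 FPKM with 4HC alone, 37.6 FPKM with IFNβ and 28.9 FPKM in untreated cells (log2 ratio 2.59). Sqstm1, the autophagy receptor p62, had 271, 291, 127 and 128 FPKM in the same order (log2 ratio 1.09). Both, and the low Aldh3a1, were the 3 genes called higher of 24 NRF2 targets tested, against 4.46% of all genes tested. This list had 0 called lower and a median log2 ratio of 0.21. Aldh3a1 was at 0.685 FPKM with 4HC and antibody and 0.235 FPKM in untreated cells, and at 0.45 on the log2 scale with 1 FPKM added. It was tested through its mean with 4HC and antibody alone. Ferritin was higher by less than 2-fold, Fth1 at 1398 FPKM against 756 FPKM in untreated cells (log2 ratio 0.89) and Ftl1 at 793 FPKM against 512 FPKM (log2 ratio 0.63). Of 21 AP-1, Egr and early response genes tested, 4 were called higher and 0 lower, with a median log2 ratio of 0.63. Junb, a subunit of AP-1, had 24.5 FPKM with 4HC and antibody, 28.1 FPKM with 4HC alone, 12.8 FPKM with IFNβ and 9.76 FPKM in untreated cells (log2 ratio 1.32). Myc was within 2-fold, at 121 FPKM against 64.2 FPKM in untreated cells (log2 ratio 0.92). Dusp1, a phosphatase that turns off MAP kinases, had 17.0, 17.1, 3.96 and 4.00 FPKM in this order of groups (log2 ratio 2.06), and 3 of the 11 Dusp genes tested were called higher, with 0 lower.

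Of 15 caspase, necroptosis and pyroptosis genes tested, 2 were called higher, against 4.46% of all genes tested, and 0 lower, with a median log2 ratio of 0.07. The untreated mean was below 0.5 FPKM for 2 of the 15, Casp1 among them. Casp4, the inflammatory caspase that binds cytosolic lipopolysaccharide, had 3.84 FPKM with 4HC and antibody, 5.54 FPKM with 4HC alone, 2.19 FPKM with IFNβ and 0.566 FPKM in untreated cells (log2 ratio 2.56). Casp1, which processes interleukin 1β, was at 1.32 FPKM against 0.484 FPKM in untreated cells (log2 ratio 1.28, and 0.65 with 1 FPKM added). The 11 genes of the BCL2 family tested had 0 calls and a median log2 ratio of -0.06. Of 15 cytosolic heat shock genes tested, Cryab, a small heat shock protein gene, at 16.6 FPKM against 7.10 FPKM in untreated cells, and Hspa1b, an inducible Hsp70 gene with a near-identical copy, at 4.84 FPKM against 2.04 FPKM, were the 2 called higher (log2 ratio 1.21 each). Hspa1b was at 0.94 with 1 FPKM added. The heat shock list had 0 called lower and a median of 0.08, and 4.46% of all genes tested were called higher.

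Lysosomal genes were all above their untreated means. Of 24 cathepsin and lysosomal genes, 20 were tested, with 4 called higher, 0 lower, a median log2 ratio of 0.63 and a lowest of 0.27. Ctsl, a lysosomal protease gene, had 134 FPKM with 4HC and antibody, 120 FPKM with 4HC alone, 63.4 FPKM with IFNβ and 61.3 FPKM in untreated cells (log2 ratio 1.13). Cd68, a lysosomal membrane glycoprotein gene, had 3.63, 3.80, 1.03 and 0.795 FPKM (log2 ratio 2.06). Cd68 is also a macrophage marker, and the other 9 leukocyte markers were below 0.5 FPKM in all 4 groups, with Cd3e and Ncr1 listed at 0 throughout and Ptprc at 0.0114 FPKM with 4HC and antibody and 0.000897 FPKM in untreated cells. The summed level of the 10 leukocyte markers was 3.81 FPKM with 4HC and antibody and 0.815 FPKM in untreated cells, nearly all of it Cd68. Of histone genes that polyA selection measures poorly, 19 of 30 were tested, with 5 called higher, 0 lower and a median log2 ratio of 0.22 that became 0.01 after centring by transcript length. Untreated means of 4 of the 19 were below 0.5 FPKM. Hist1h2bc, the most abundant of those called, had 14.3 FPKM against 4.14 FPKM in untreated cells (log2 ratio 1.77).

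Krt16, a stress keratin gene, was on none of the lists and among the 20 highest ratios. It had 27.5 FPKM with 4HC and antibody, 28.7 FPKM with 4HC alone, 2.39 FPKM with IFNβ and 1.58 FPKM in untreated cells (log2 ratio 4.04). Sprr1a, of the cornified envelope, had 1.41, 1.15, 0.210 and 0.108 FPKM in the same order (log2 ratio 2.86). Spp1, the gene of osteopontin, had 83.0 FPKM with 4HC and antibody, 67.0 FPKM with 4HC alone, 17.1 FPKM with IFNβ and 16.1 FPKM in untreated cells (log2 ratio 2.36). Id1 and Id3, inhibitors of basic helix-loop-helix factors, were among the 10 most abundant genes called higher, with a higher mean with antibody than with 4HC alone. So had Akr1b3, Ctsl, Spp1 and Malat1 of the same 10, whereas B2m, H2-D1, Hmox1 and Sqstm1 had a lower mean with antibody. Id1 had 82.8 FPKM with 4HC and antibody, 53.5 FPKM with 4HC alone, 49.1 FPKM with IFNβ and 35.6 FPKM in untreated cells (log2 ratio 1.21), and Id3 had 68.0, 48.6, 45.4 and 28.1 FPKM (log2 ratio 1.27). The epithelial markers did not come with Krt16. Epcam, Cdh1, Krt18 and Krt19 were below 0.1 FPKM in all 4 groups, whereas Krt8 had 51.9 FPKM with 4HC and antibody and 70.2 FPKM in untreated cells. Vim, a mesenchymal marker, was at 849 FPKM with 4HC and antibody and 785 FPKM in untreated cells, so the epithelial markers other than Krt8 were near 0 in this mammary carcinoma line. The 6 mesenchymal markers summed to 895 FPKM with 4HC and antibody and 836 FPKM in untreated cells, and the 4 endothelial markers to 0.665 and 0.680 FPKM.

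Fatty acid synthesis stood out among the genes below untreated cells. Of 17 genes of fatty acid synthesis and desaturation, 14 were tested, and all 14 had a lower mean with 4HC and antibody, with 3 called lower, 0 higher and a median log2 ratio of -0.74. Fads2, a desaturase of polyunsaturated fatty acids at chr19:10138653-10175993 of mm9, had 10.8 FPKM with 4HC and antibody, 10.7 FPKM with 4HC alone, 24.1 FPKM with IFNβ and 27.8 FPKM in untreated cells (log2 ratio -1.35). Acaca, the acetyl-CoA carboxylase of the first committed step, had 4.73, 6.14, 9.24 and 10.2 FPKM in the same order (log2 ratio -1.09). Scd1, a stearoyl-CoA desaturase, had 10.3, 12.7, 19.08 and 21.4 FPKM (log2 ratio -1.04). Acaca and Scd1 fell short of 2-fold with 1 FPKM added (-0.97 and -0.98) and after centring by transcript length (-0.90 and -0.97). Srebf1, a regulator of these genes, was at 11.7 FPKM against 22.7 FPKM in untreated cells (log2 ratio -0.95), Scd2 at 58.8 FPKM against 105 FPKM (log2 ratio -0.83) and Fasn at 23.5 FPKM against 38.7 FPKM (log2 ratio -0.71). The median over the 14 genes was -0.74 in the comparison of 4HC alone and -0.15 in that of IFNβ.

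Sterol genes did not show 1 direction. Of 25 sterol synthesis and uptake genes, 24 were tested, with 0 called in either direction and a median log2 ratio of -0.09. Srebf2, a regulator of sterol synthesis, had 13.6 FPKM with 4HC and antibody, 13.8 FPKM with 4HC alone, 21.4 FPKM with IFNβ and 24.7 FPKM in untreated cells (log2 ratio -0.86), whereas the enzyme gene Msmo1 had 16.1 FPKM against 8.76 FPKM (log2 ratio 0.87). Of 27 hypoxia and glycolysis genes tested, 23 had a lower mean with 4HC and antibody, but Ankrd37 was the 1 called lower, at 1.47 FPKM against 3.63 FPKM in untreated cells (log2 ratio -1.25, and -0.91 with 1 FPKM added). Pdk1, an inhibitor of pyruvate entry into mitochondria, was at 8.74 FPKM against 15.4 FPKM (log2 ratio -0.81), and Ndrg1 lay on the other side at 26.0 FPKM against 14.2 FPKM (log2 ratio 0.87).

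**Figure D4:**
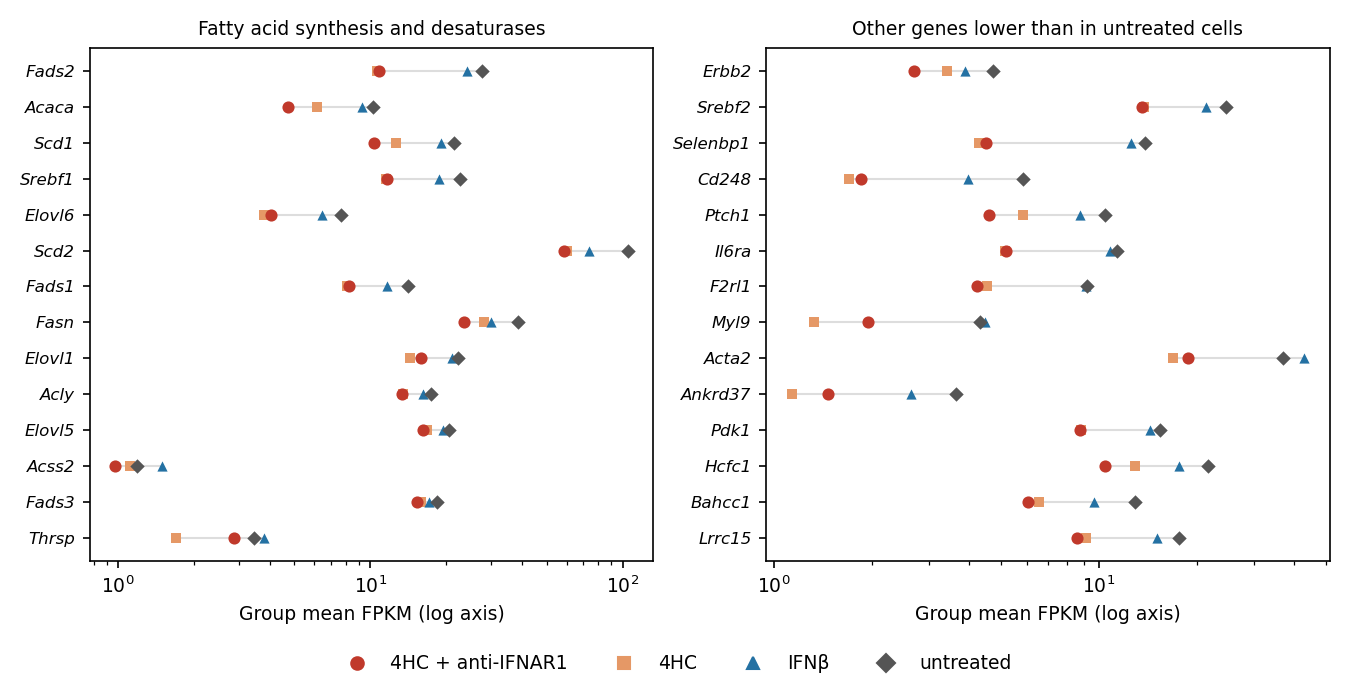
Group mean FPKM on a log axis for the 14 fatty acid genes tested (left) and for 14 further genes with a lower mean than untreated cells (right), with circles for 4HC with anti-IFNAR1 antibody, squares for 4HC, triangles for IFNβ and diamonds for untreated cells, 1 symbol per group mean. All 14 circles at the left lie below the diamonds, as for Fads2 at 10.8 FPKM with 4HC and antibody and 27.8 FPKM in untreated cells.

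Among the 20 lowest ratios, Selenbp1, a selenium-binding protein gene, had 4.48 FPKM with 4HC and antibody, 4.28 FPKM with 4HC alone, 12.6 FPKM with IFNβ and 13.9 FPKM in untreated cells (log2 ratio -1.61). Cd248, the stromal cell surface gene endosialin, had 1.85, 1.71, 3.95 and 5.84 FPKM in the same order (log2 ratio -1.60). Receptor genes of this range included Ptch1, the Hedgehog receptor, at 4.59 FPKM against 10.4 FPKM in untreated cells (log2 ratio -1.17), Il6ra, the receptor subunit of interleukin 6, at 5.196 FPKM against 11.4 FPKM (log2 ratio -1.11), and F2rl1, a protease-activated receptor, at 4.21 FPKM against 9.20 FPKM (log2 ratio -1.11). With 1 FPKM added, Il6ra (-0.997) and F2rl1 (-0.97) did not pass 2-fold, nor after centring by transcript length did Il6ra (-0.93) and Ptch1 (-0.98). The contractile genes Myl9, at 1.95 FPKM against 4.30 FPKM in untreated cells (log2 ratio -1.10, and -0.84 with 1 FPKM added), and Acta2, at 18.8 FPKM against 36.9 FPKM (log2 ratio -0.97, and -1.02 after centring by length), had lower means, and of the 19 contractile and cytoskeletal genes tested 1 was called lower and 1 higher. Of 20 collagen and matrix genes tested, Cd248 was the 1 called lower and Thbs2 the 1 called higher (1.01 FPKM against 0.388 FPKM in untreated cells, and a log2 ratio of 0.53 with 1 FPKM added). Thbs2 was tested through its mean with 4HC and antibody alone. Over all genes tested the shares were 0.446% lower and 4.46% higher. Erbb2, a growth factor receptor gene the study follows in these cells, had 2.70 FPKM with 4HC and antibody, 3.41 FPKM with 4HC alone, 3.87 FPKM with IFNβ and 4.71 FPKM in untreated cells (log2 ratio -0.78).

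Genes of cell division, repair and RNA handling were nearly all within 2-fold, as were most of all genes tested. Of 30 replication, 30 mitosis, 42 splicing and 39 ribosome biogenesis genes tested, 0 were called in either direction, with median log2 ratios of -0.16, -0.21, -0.19 and -0.11. Mki67, a marker of proliferating cells, had 6.24 FPKM with 4HC and antibody, 5.93 FPKM with 4HC alone, 9.25 FPKM with IFNβ and 10.3 FPKM in untreated cells (log2 ratio -0.71), whereas Cdk1 was at 26.4 FPKM against 25.5 FPKM in untreated cells. In bulk RNA such as this, fewer cells of a kind and less RNA per cell cannot be told apart. Of 43 crosslink and double-strand break repair genes, Xrcc5 was the 1 called, higher at 1.91 FPKM against 0.805 FPKM in untreated cells (log2 ratio 1.15, and 0.69 with 1 FPKM added). Over all genes tested 4.46% were called higher. With 0 calls each, the lists of G1 cyclins and CDK inhibitors (15 tested), DNA methylation and heterochromatin regulators (23), iron genes (11) and transporters with detoxifying enzymes (16) had medians of -0.18, -0.21, 0.14 and 0.18. Of 9 epithelial and mesenchymal state genes tested, Krt14 was the 1 called higher (0.643 FPKM against 0.0957 FPKM in untreated cells, and a log2 ratio of 0.58 with 1 FPKM added), and 1 of 26 germline genes was tested and not called. Krt14 was tested through its mean with 4HC and antibody alone. The 14 control genes had 0 calls and a median log2 ratio of -0.18, with Gapdh at 1355 FPKM against 1572 FPKM in untreated cells.

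Ratios of the comparison went with transcript length. Over the 10550 genes tested that had a length (96% of those tested), the median log2 ratio of 4HC with antibody over untreated was 0.21 for genes whose longest transcript had up to 500 bases, 0.32 for 500 to 1000 bases, 0.06 for 2000 to 3000 bases, -0.07 for 4000 to 6000 bases and -0.19 for more than 8000 bases. The 4HC comparison had medians between -0.03 and 0.03 in all 9 length ranges, and the IFNβ comparison had 0.12 for 500 to 1000 bases and -0.14 for more than 8000 bases. The share of genes called higher with 4HC and antibody was 15.5% up to 500 bases, 4.77% at 2000 to 3000 bases and 0.56% above 8000 bases. It did not fall at each step, with 5.53% at 1000 to 1500 bases and 8.19% at 1500 to 2000 bases. The share called lower was also highest up to 500 bases, at 5.96%, against 0.14% at 2000 to 3000 bases and 0.933% above 8000 bases. Lists of short genes moved with it: the 40 cytosolic ribosomal protein genes had a median log2 ratio of 0.30, against -0.11 for 4HC alone and 0.17 for IFNβ over untreated, and it was 0.10 after centring each gene on the median of its length range. Rplp2, a ribosomal stalk protein gene, had 576 FPKM with 4HC and antibody, 410.2 FPKM with 4HC alone, 382 FPKM with IFNβ and 354 FPKM in untreated cells (log2 ratio 0.70). Mitochondrial respiratory chain genes (40 tested, median 0.15) and proteasome genes (31 tested, median 0.17) were at -0.03 and 0.01 after the same centring. Chemokine genes (2.77), cytokine genes (1.26), NF-κB genes (0.65), core ISGs (0.38) and fatty acid genes (-0.68) kept their direction. Centring by length, which was chosen after seeing the data, left 418 genes called higher and 70 lower.

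**Figure D5:**
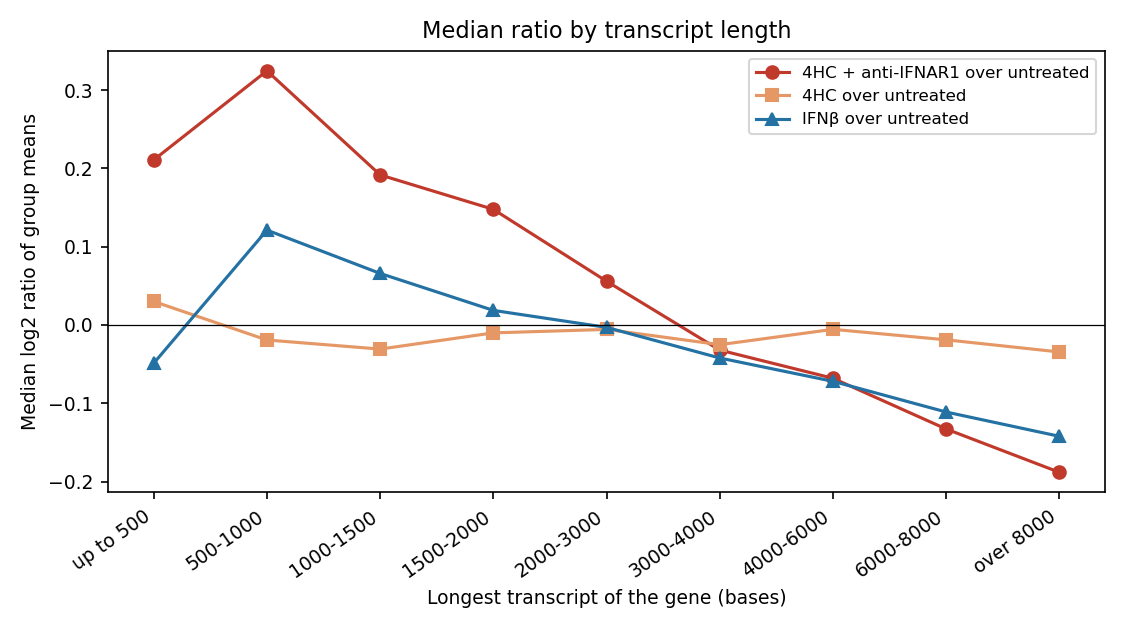
Median log2 ratio of group means by the length of the longest transcript of the gene in bases, in 9 ranges, for 4HC with anti-IFNAR1 antibody (circles), 4HC (squares) and IFNβ (triangles), each over untreated cells. The line with antibody goes down from 0.32 at 500 to 1000 bases to -0.19 above 8000 bases, and the 4HC line stays between -0.03 and 0.03.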

How the data were processed

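The values are deposited FPKM, which the authors computed as 1 mean per group over 3 libraries from polyA-selected, stranded RNA-seq. The submitters' processing notes name TopHat2, featureCounts, edgeR and genome build mm9, with no versions or strand setting given in the sources used here. For each of 4 comparisons the table also holds the authors' linear ratio, signed fold change and edgeR-adjusted p-value, which were not used. A test on counts had been planned, but no counts or values per library were at hand, so ratios of means were used. 

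The log2 ratio, the 0.5 FPKM minimum and the 2-fold call were computed with Python 3.11.15, pandas 2.3.3 and numpy 2.4.6, and the calls were tested on simulated data. Of the names, 23015 were found among Ensembl symbols, a further 236 among RefSeq symbols and 946 in neither. The 47 gene lists (4 of them cell markers; 1156 of 1158 genes found in the table), like the choice of this comparison, were made with earlier results of these data known. Genes named were the 20 highest and 20 lowest ratios of at least 1 FPKM, the 10 called higher and 5 called lower of highest level, from each list the 2 of highest level, 4 of highest and 2 of lowest ratio, genes the study names (Igtp, Oasl1, Cxcl10, Mx1, Cxcl11, Rsad2 and Erbb2), Ifnar1 and Ifnar2. Gm, LOC, Mir, Snor and Rik symbols and dates were passed over in rankings. Further list members (Areg, Cd3e, Cdh1, Cdkn1a, Cxcl1, Cxcl2, Epcam, Hbegf, Irf7, Isg15, Krt18, Krt19, Lgals3bp, Lgals9, Mdm2, Ncr1, Ptprc, Relb, Srebf1, Usp18) were named after their values were seen. Transcript lengths came from GENCODE vM21, promoters from RefSeq.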

Additional observations from a re-analysis of the deposited data

How the results depend on the processing

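No paired analysis was possible because the table holds 1 mean per group and no values per library. For the same reason no test, no block by replicate number and no fit without a replicate was run. The planned use of means as repeated under another comparison was also not run. The counts of 490 genes higher and 49 lower became 148 and 8 with a pseudocount of 1 FPKM, 889 and 94 with no minimum, 1129 and 390 at 1.5-fold and 182 and 12 at 3-fold. They stayed within 1.5 times the main count with a pseudocount of 0.01 FPKM, a minimum of 1 FPKM, a mean of the 4 groups of at least 0.5 FPKM, or centring on the median of all genes. Without small RNA and date symbols, an alternative chosen after seeing the data, 22 genes were lower. Of the list medians past 2-fold, with 1 FPKM added the GTPases were at 0.55, cytokines at 0.70 and inflammatory enzymes and adhesion molecules at 0.73. With no minimum, chemokines were at 0.63 and cytokines at 0.71, and with the minimum on the mean of 4 groups cytokines were at 0.97. Acute-phase genes passed 2-fold at a minimum of 1 FPKM, at 1.39. Of the named genes, 52 lost their call with 1 FPKM added, 13 after centring by transcript length and 1 after median centring, none changed sign while called, and the cause of these shifts was not tested. Depth, spread and any effect of single libraries cannot be judged from group means.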

Other observations

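Most genes called lay outside the lists. Of the 490 called higher, 117 were in a list, and of the 49 called lower, 8 were. A few single genes outside the lists that were past 2-fold with 4HC and antibody are given here. All of them were chosen after their values were seen. Tnfrsf9, a costimulatory receptor of the TNF receptor family, had 6.33 FPKM with 4HC and antibody, 6.84 FPKM with 4HC alone, 1.88 FPKM with IFNβ and 1.70 FPKM in untreated cells (log2 ratio 1.83). Cd40, of the same family, had 3.77, 4.58, 1.14 and 0.984 FPKM in this order (log2 ratio 1.84). Ccr7, a chemokine receptor, had 1.73, 1.37, 0.171 and 0.209 FPKM (log2 ratio 2.57). Slpi, a secreted inhibitor of leukocyte proteases, had 16.3 FPKM with 4HC and antibody, 15.5 FPKM with 4HC alone, 4.16 FPKM with IFNβ and 3.69 FPKM in untreated cells (log2 ratio 2.12). Gadd45b and Gadd45g, relatives of Gadd45a, had 11.1 and 25.1 FPKM with 4HC and antibody, against 4.44 and 9.07 FPKM in untreated cells (log2 ratios 1.30 and 1.46). None of these differences was tested here.

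Oas2, an antiviral 2-5 oligoadenylate synthetase gene, was at 0.263 FPKM with 4HC and antibody, 16.2 FPKM with 4HC alone, 8.68 FPKM with IFNβ and 0.252 FPKM in untreated cells, and fell under the 0.5 FPKM minimum of the comparison for this reason. Of the 57 core ISGs, 8 were under that minimum with 4HC and antibody and in untreated cells.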
